A study of Mus musculus with 2 samples.

Results

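The S100 and annexin genes encode 2 unrelated families of calcium-binding proteins, followed here in a primary and a metastatic neuroendocrine tumor xenograft. Members were taken by gene symbol, as S100A with a number, S100B, S100P, S100G, S100Z and ANXA with a number, without pseudogenes. This gave 31 of the 57011 labels in the table of expression values, made up of 19 S100 genes and 12 annexin genes, and 0 of them shared a label with another gene. RNA was sequenced from patient-derived xenografts, human tumor tissue passaged in mice, here in athymic nude mice of the Foxn1nu strain, which lack a thymus and most T cells. One library came from a primary gastroenteropancreatic neuroendocrine tumor grown in the flank, and the other from a metastatic tumor of that type grown in the peritoneal cavity. The labels name no treatment, and both tumors were taken apart with a tumor dissociation kit before RNA was extracted from the cell pellet. Each group held 1 library, so differences are given without a replicate error or a test. Origin of the tumor and site of the graft differed together and cannot be told apart.

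S100 proteins are small EF-hand proteins that usually pair with themselves or with each other. When calcium binds, most of them open a surface that grips a target protein, often the N-terminal tail of an annexin. Annexins carry a core of repeats that binds acidic membrane phospholipids in the presence of calcium, and they act in membrane repair, vesicle traffic and the anchoring of the actin cortex. Most human S100A genes lie side by side in a cluster on the long arm of chromosome 1, while annexin genes are scattered over the genome. In epithelial and pancreatic tissue several members of both families are abundant, and S100A4 and S100P are widely studied in relation to tumor spread.

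Values were FPKM, a unit that scales the fragments mapped to a gene by its transcript length, so levels of different genes are compared per length, and by a total of the library. Which total was used for each column is not stated. Among the 6509 rows under 1 FPKM but not 0 in either column, 41.9% stood in a simple ratio such as 3 to 2 (whole numbers of at most 5, tolerance 0.01%), against 0.0615% once the columns were rescaled to the same sum. Ratios without rescaling may thus still carry a difference in depth. They summed to 784987 in the library of the primary tumor and 885319 in the other, and read depth is unknown. Log2 ratios set the metastatic over the primary library after 1 FPKM was added to each value, which understates differences of low genes. Rescaling both libraries to the same sum moved the median ratio of all entries from 0.03 to -0.13. A gene was called expressed at 1 FPKM in at least 1 library, as were 13811 entries. LDHA, a gene of nearly every cell, was listed at 0 in both libraries, so a value of exactly 0 may reflect a failed estimate. In these bulk samples fewer cells of a type and less RNA per cell cannot be told apart. How mouse host reads were handled is not given, so tumor and host sources of a marker cannot be told apart either. Of 11 neuroendocrine markers 7 were expressed as single genes, with 2 higher and 3 lower in the metastatic tumor by 2-fold or more. The higher ones were UCHL1 and DDC, and the lower ones INSM1, SCG2 and PCSK1. The defining marker CHGA was listed at 0 in both libraries, and SYP stood at 1.63 FPKM in the primary library and 1.96 in the metastatic one.

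Both families had strongly expressed members, with 12 of 31 reaching 100 FPKM in a library and 8 under 1 FPKM in both. Of the 23 expressed members 22 were within 2-fold between the tumors on the log2(FPKM + 1) scale. S100A6 was the most abundant member in both, followed in differing order by S100A4, S100A11, S100A10, S100A13 and S100A16, while ANXA2, ANXA5 and ANXA11 led the annexins. S100A3 was the exception, at 11.2 FPKM in the primary library and 3.98 in the metastatic one. Annexins mostly stood higher in the metastatic tumor, with 7 of 10 expressed members above a ratio of 0. These 7 include ANXA9, which reached 1 FPKM only in the metastatic library, so the filter fixed its sign. S100 genes mostly stood lower, with 9 of 13 below 0. Over all expressed entries 51.8% were above 0 and 47.7% below, and over both families together 11 members were above and 12 below.

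Of the 31 members 23 were expressed, and of these 0 were higher and 1 was lower in the metastatic tumor by 2-fold or more. Over all expressed entries 9.22% were higher and 9.35% lower by that measure, or 18.6% in either direction, against 4.35% of the expressed members. Of 12 members reaching 100 FPKM in a library 0 differed by 2-fold, while 22.1% of the 1527 entries at that level did, 17.3% upward and 4.78% downward. Of 18 members reaching 10 FPKM 1 did, while 17.8% of such entries did, 9.91% upward and 7.92% downward. At 1.5-fold, a threshold chosen after the values were seen, 5 members were higher and 5 lower, or 43.5% of those expressed against 41.8% of all entries (21.8% higher and 20.0% lower). The median ratio was -0.30 for the 13 expressed S100 genes and 0.53 for the 10 expressed annexins, beside 0.03 for all entries. Rescaled to the same sum, these medians were -0.47, 0.36 and -0.13. The ratio of each of the 23 members kept its sign under all 3 rescalings.

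**Figure D1:**
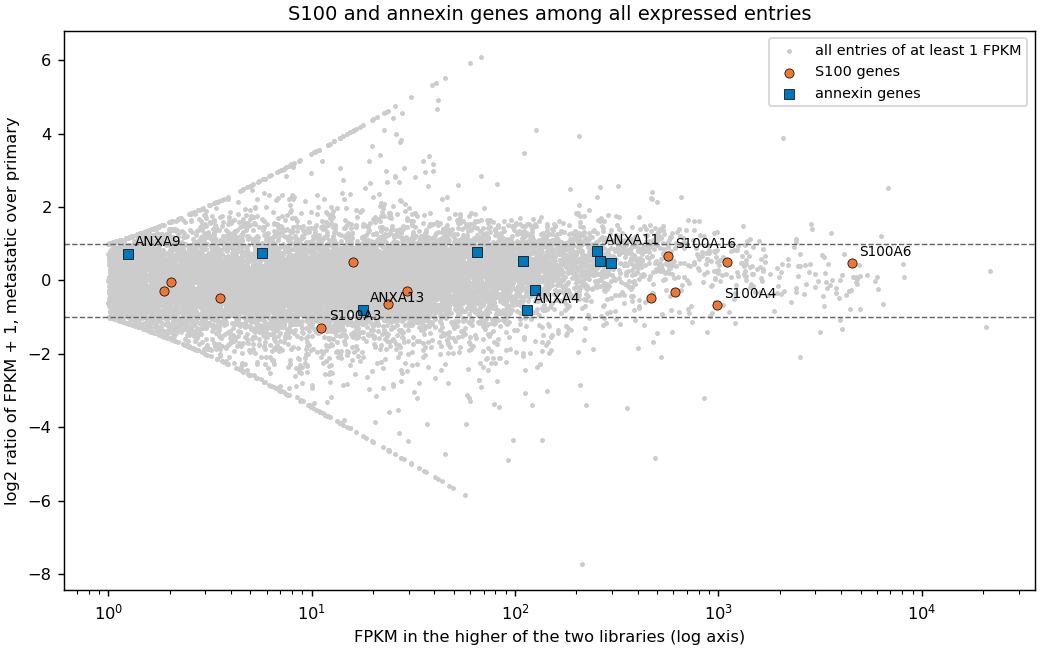
Each grey point is 1 of 13811 expressed entries, with its FPKM in the higher of the 2 libraries on a log axis and its log2 ratio, metastatic over primary, on the vertical axis; orange circles are S100 genes, blue squares annexins, and dashed lines mark 2-fold. Of the members, S100A3 lies beyond a dashed line, at -1.29, and the others lie between -0.81 and 0.79.

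The S100A10 and ANXA2 genes encode the best known pair of the families. S100A10, or p11, keeps an open form without calcium and binds annexin A2 in a complex that holds plasminogen activators and plasminogen at the cell surface. S100A10 stood at 612 FPKM in the primary library and 494 in the metastatic one, a log2 ratio of -0.31. ANXA2 stood at 214 and 297 FPKM, a log2 ratio of 0.47. The partners thus stood on opposite sides of 0, and S100A10 had 2.85 times the FPKM of ANXA2 in the primary library and 1.66 times in the metastatic one. ANXA2 was the most abundant annexin in both libraries. The giant scaffold protein AHNAK, which binds the complex, stood at 64.4 and 20.9 FPKM, a log2 ratio of -1.58. PLAT, the tissue plasminogen activator, stood at 0.686 and 2.02 FPKM, while PLG, its substrate, was listed at 0 in both.

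S100A11 and S100A6 are the other S100 proteins with well described annexin partners, annexin A1 and annexin A11. S100A11 stood at 779 FPKM in the primary library and 1100 in the metastatic one, a log2 ratio of 0.50. ANXA1, whose protein dampens inflammation and was first known as lipocortin, stood at 126 and 105 FPKM, a log2 ratio of -0.27. The FPKM of S100A11 was therefore 6.19 times that of ANXA1 in the primary library and 10.5 times in the metastatic one. Against ANXA2 it was 3.64 and 3.70 times. S100A6, or calcyclin, stood at 3244 and 4510 FPKM, a log2 ratio of 0.48. It ranked 36 among all expressed entries in the primary tumor and was above 99.9% of them in the metastatic tumor. ANXA11, an adaptor that tethers RNA granules to lysosomes, stood at 146 and 254 FPKM, a log2 ratio of 0.79. S100A6 and ANXA11 were both higher in the metastatic tumor, with S100A6 at 22.2 and 17.8 times the FPKM of ANXA11. CACYBP, the calcyclin-binding protein, stood at 234 and 463 FPKM, a log2 ratio of 0.98.

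**Figure D2:**
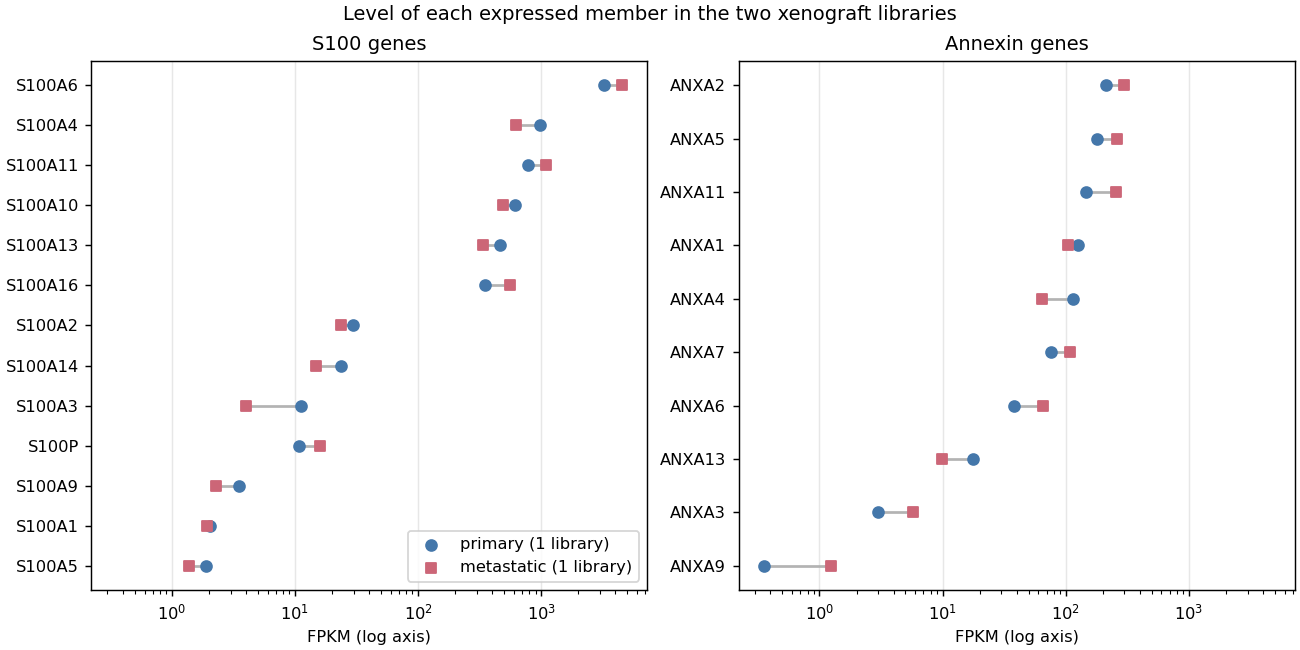
FPKM of the 23 expressed members on a log axis, with S100 genes on the left and annexins on the right; blue circles are the primary and red squares the metastatic library, 1 library each. S100A6 lies at 3244 and 4510 FPKM, 5 further S100 genes lie above 335 FPKM in both libraries, and the other expressed S100 genes lie at or below 29.5.

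Genes of the S100 cluster stood on both sides of a ratio of 0. In the human map S100A6, S100A5, S100A4, S100A3, S100A2, S100A16, S100A14 and S100A13 follow each other in this order. S100A6 and S100A16 stood higher in the metastatic tumor, and the 6 others stood lower. S100A4, which binds the heavy chain of non-muscle myosin, stood at 981 FPKM in the primary library and 618 in the metastatic one, a log2 ratio of -0.66. It ranked 2 among S100 genes in the primary library and 3 in the metastatic one, where S100A11 stood above it. S100A4 is also known as a fibroblast gene. Of 12 fibroblast markers 7 were expressed as single genes, with 4 lower and 1 higher by 2-fold or more. The 11 listed alone summed to 558 FPKM in the primary library and 180 in the metastatic one. Most of this was 1 gene, COL1A2, at 474 and 149 FPKM. The lower ones were COL1A1, COL1A2, COL3A1 and FAP, and the higher one was DCN. LUM was listed at 0 in the primary and POSTN at 0 in the metastatic tumor. Whether these markers came from tumor or mouse host cells cannot be told, and a part of fibroblasts in the S100A4 values was not tested.

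S100A3, known from the cuticle of hair, had the largest difference of the family. Its 11.2 and 3.98 FPKM gave a log2 ratio of -1.29, or 2.80 times as much in the primary tumor, and -1.47 after rescaling to the same sum. It ranked 9 among S100 genes in the primary library and 10 in the metastatic one, below S100P. S100A2, a nuclear S100 protein of basal epithelium, stood at 29.5 and 23.8 FPKM, and S100A14, an epithelial S100 protein, at 23.6 and 14.9. Their log2 ratios were -0.30 and -0.63. S100A5, best known from olfactory neurons, was low at 1.89 and 1.39 FPKM. Among other genes of squamous epithelium, KRT5, KRT14, KRT6A, TP63 and DSG3 were under 0.2 FPKM in both libraries, and KRT1, KRT13 and IVL were listed at 0. Of the 12 markers on that list 3 were expressed, namely S100A2 itself, KRT10 and SFN, the last at 4.19 and 9.68 FPKM, and the sum was 64.4 FPKM in the primary library and 68.5 in the metastatic one.

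S100A16, one of the most widely expressed S100 proteins, stood at 350 FPKM in the primary library and 562 in the metastatic one. Its log2 ratio of 0.68 was the highest of the S100 genes, and it ranked 6 among them in the primary library and 4 in the metastatic one. S100A13, which helps to export FGF1 from cells, stood at 465 and 335 FPKM, a log2 ratio of -0.47. FGF1 itself stood at 0.0855 FPKM in the primary and was listed at 0 in the metastatic tumor. S100A1, a muscle S100 protein, stood at 2.04 and 1.94 FPKM. Its gene overlaps S100A13 on the other strand, and whether strand was used in counting is not given in the sources used here; without it, reads of the pair cannot be told apart.

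Of the 4 S100 genes outside the cluster 1, S100P, was expressed. S100P, which binds ezrin and is common in pancreatic and gastrointestinal tumors, stood at 10.8 FPKM in the primary library and 15.9 in the metastatic one, a log2 ratio of 0.52. EZR, encoding ezrin, stood at 104 and 132 FPKM. S100B, the glial and melanocyte marker, and S100G, the intestinal calcium buffer calbindin-D9k, were listed at 0 in both libraries. S100Z was listed at 0 in the primary library and measured 0.18 FPKM in the metastatic one. Among Schwann and glial markers, SOX10 and ERBB3 were also listed at 0 in both.

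The alarmins, S100 proteins released mainly by myeloid cells and inflamed skin, had 1 expressed gene of 4. S100A9 stood at 3.52 FPKM in the primary library and 2.27 in the metastatic one, a log2 ratio of -0.47. S100A8, which pairs with S100A9 to form calprotectin, and S100A12 were listed at 0 in both libraries. S100A7, or psoriasin, stood at 0.186 FPKM in the primary and was listed at 0 in the metastatic tumor. Of 12 neutrophil and monocyte markers, which include S100A8, S100A9 and S100A12, 2 were expressed, and they summed to 8.21 FPKM in the primary library and 15.0 in the metastatic one. The higher sum came with LYZ, which encodes lysozyme, at 2.72 and 11.97 FPKM, whereas FCGR3B, ELANE and FCN1 were listed at 0 in both. Of 11 macrophage markers 1 was expressed as a single gene, CSF1R at 1.06 and 0.243 FPKM, and MARCO and AIF1 were listed at 0 in both. CD68 was found only in a label of several genes and was left out. The 10 macrophage markers listed alone summed to 2.25 FPKM in the primary library and 0.861 in the metastatic one.

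**Figure D3:**
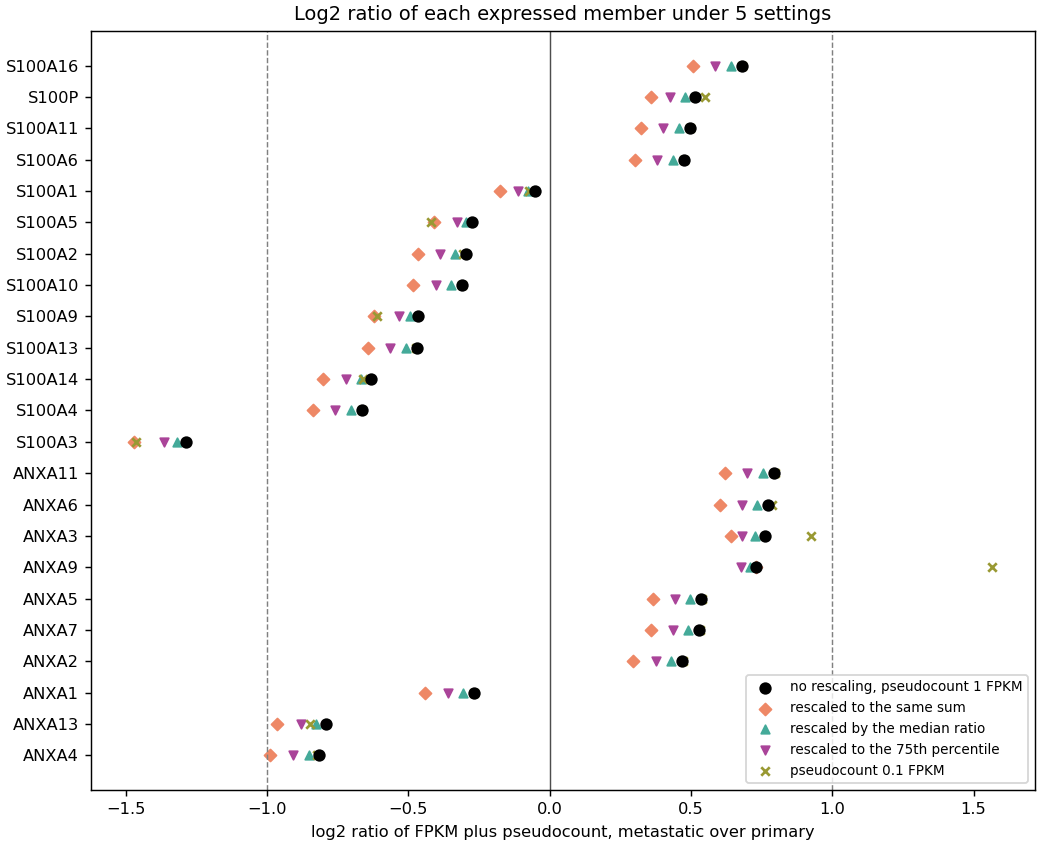
Log2 ratio, metastatic over primary, of the 23 expressed members under 5 settings, with S100 genes above and annexins below and dashed lines at 2-fold. Under no setting shown does a member cross 0; S100A3 lies beyond 2-fold in all 5, and ANXA9 reaches 1.56 with a pseudocount of 0.1 FPKM.

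Most other annexins stood higher in the metastatic tumor. ANXA5, whose protein binds phosphatidylserine and is used to stain dying cells, stood at 180 FPKM in the primary library and 261 in the metastatic one, with a log2 ratio of 0.54. ANXA7, or synexin, which binds sorcin, stood at 75.4 and 109 FPKM, a log2 ratio of 0.53. ANXA6, which brings a Ras inactivator to membranes, stood at 37.8 and 65.2 FPKM, a log2 ratio of 0.77. These 3 ratios lay between 0.36 and 0.60 after rescaling to the same sum, so they stayed above 0. SRI, encoding sorcin, stood at 211 and 187 FPKM, and RASA1, the Ras inactivator that annexin A6 recruits, at 10.4 and 4.38, a log2 ratio of -1.08.

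ANXA4 and ANXA13, annexins of polarized epithelium, stood lower in the metastatic tumor together with ANXA1. ANXA4 stood at 114 FPKM in the primary library and 64.3 in the metastatic one, a log2 ratio of -0.81, or -0.99 after rescaling to the same sum. ANXA13, found mainly in intestinal epithelium, stood at 17.8 and 9.85 FPKM, a log2 ratio of -0.79, or -0.96 rescaled. Both lay just inside 2-fold after rescaling, with 1 FPKM added to each rescaled value. ANXA4 ranked 5 among annexins in the primary library and 7 in the metastatic one, below ANXA7 and ANXA6. Of 8 general epithelial markers 6 were expressed as single genes, all with ratios above 0. By 2-fold or more 2 were higher, KRT8 and CLDN4, and 0 lower. The 7 listed alone summed to 1298 and 2480 FPKM, mostly KRT8, at 649 and 1423, and KRT18, at 541 and 904. CGN, a tight junction gene outside this list, stood lower in the metastatic tumor, at 16.2 and 5.56 FPKM. A link of these genes to ANXA4 and ANXA13 was not tested.

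ANXA3 and ANXA9 were the lowest of the expressed annexins. ANXA3 stood at 2.97 FPKM in the primary library and 5.72 in the metastatic one, a log2 ratio of 0.76. ANXA9, an annexin with degenerate calcium sites, stood at 0.356 and 1.25 FPKM. Its FPKM was 3.51 times higher in the metastatic tumor, but with the pseudocount of 1 its log2 ratio was 0.73, inside 2-fold. ANXA8 stood at 0.0814 and 0.130 FPKM, and ANXA10, a gastric annexin, was listed at 0 in both. In all, 8 members were under 1 FPKM in both libraries, namely ANXA8, ANXA10, S100A7, S100A8, S100A12, S100B, S100G and S100Z. Of these 5 were listed at 0 in both, and the highest value was 0.186 FPKM.

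As a share of all FPKM, the 19 S100 genes made up 0.83% in the primary library and 0.868% in the metastatic one, and the 12 annexins 0.116% and 0.132%. S100 genes summed to 6514 and 7684 FPKM, and without S100A6 the sums were 3270 and 3174. Among the other abundant S100 genes, S100A11 and S100A16 stood higher in the metastatic library and S100A4, S100A10 and S100A13 lower. Their differences thus partly cancelled in the sum. S100A6 took 49.8% of the S100 sum in the primary library and 58.7% in the metastatic one, while the share of S100A4 was 15.1% and 8.05%. ANXA2, ANXA5 and ANXA11 together took 59.1% of the annexin sum in the primary library and 69.3% in the metastatic one. ANXA4 made up 12.4% and 5.48% of it, and ANXA1 13.8% and 8.92%. The annexin sum was 914 FPKM in the primary library and 1172 in the metastatic one.

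**Figure D4:**
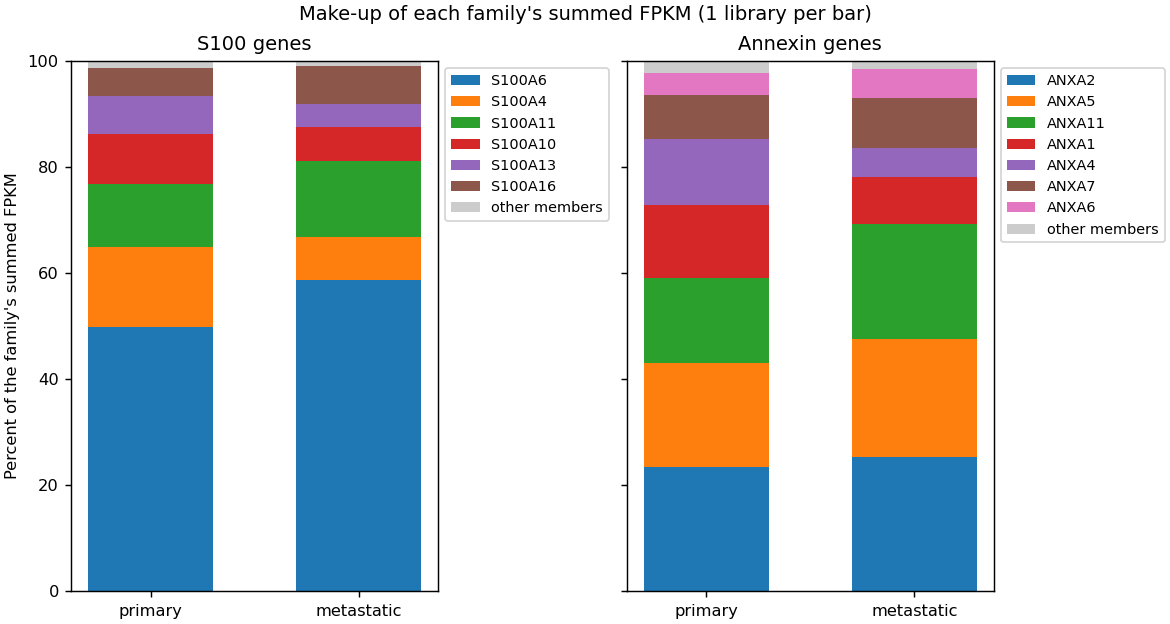
Stacked bars give the percent of each family's summed FPKM taken by its members, with S100 genes on the left and annexins on the right, and 1 library per bar. The share of S100A6 is 49.8% in the primary library and 58.7% in the metastatic one, and that of ANXA4 is 12.4% and 5.48%.

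Over all expressed entries 81.4% were within 2-fold, and partners and neighbours of the families had shares near this or above it. Among 12 expressed partners of S100 proteins 0 were higher and 1 lower by 2-fold or more, AHNAK, with a median log2 ratio of -0.06. HLTF, a helicase-like factor reported to bind the S100A10 complex, stood at 40.4 FPKM in the primary library and 23.1 in the metastatic one. Among 12 expressed partners of annexins 0 were higher and 1 lower, RASA1, with a median of -0.19. EGFR stood at 10.6 and 6.83 FPKM, CAPN2, a calpain subunit, at 74.5 and 111, and PEF1, a small EF-hand protein, at 32.6 and 47.8.

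Membrane repair genes, among which annexins are counted in many cells, had 14 expressed members outside the families. By 2-fold or more 0 were higher and 3 lower, with a median log2 ratio of -0.09. The 3 were AHNAK, EHD2 and CAV1. EHD2, which caps the neck of caveolae, stood at 35.5 FPKM in the primary library and 13.7 in the metastatic one, and CAV1, the main caveolar coat protein, at 8.97 and 3.64. SYT7, a calcium sensor of lysosome exocytosis, stood at 5.81 and 2.71 FPKM.

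Of 8 receptor genes for secreted S100 proteins and annexin A1 that were listed alone, 3 were expressed. AGER, the receptor for advanced glycation end products, and the formyl peptide receptor genes FPR1 and FPR3 were listed at 0 in both libraries. FPR2, through which annexin A1 signals, stood at 0.338 FPKM in the primary and was listed at 0 in the metastatic tumor. The 3 expressed ones were within 2-fold. BSG, or basigin, stood at 426 and 525 FPKM, SDC4 at 72.6 and 38.7, and ALCAM at 15.6 and 9.57.

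Among 10 expressed genes near the S100 cluster that encode other proteins, 0 were higher and 1 lower by 2-fold or more, with a median log2 ratio of 0.13. The lower one was CGN, encoding the tight junction protein cingulin, at 16.2 FPKM in the primary library and 5.56 in the metastatic one. THEM4 stood at 9.25 and 18.8 FPKM, CHTOP at 90.7 and 128, and NPR1 at 1.33 and 0.592. Of 16 fused S100 and epidermal genes of the same chromosome band found in the table, such as FLG and HRNR, 0 were expressed and 13 were listed at 0 in both libraries.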

How the data were processed

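RNA-seq values were analysed as the FPKM that the authors deposited, as 1 table (62573 rows) whose columns are the 2 libraries. The human build GRCh38 and the tools STAR 2.7.6a, Cufflinks 2.2.1 and bcl2fastq 2.18.0.12 are listed in the submitters' processing notes, without saying what each did. What annotation and filters were used and how mouse host reads were handled is not given in the sources used here. Mouse is the labelled organism, while the table lists human gene symbols. Without counts in the table, depth is unknown and counting intervals cannot be given.

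Rows with the same label were summed with pandas 2.3.3, and libraries were not rescaled. Members, gene lists and the rule for named genes were chosen with earlier results of these data known. The rule named every expressed member, up to 4 expressed genes per list, those furthest from a log2 ratio of 0, and markers that differed by 2-fold or were at 0. Partner genes such as PLG, FGF1, EZR, SRI and FPR2 were named after their values were seen. A few genes the rule would name are not reported here. Lists were described by counts and medians, without a test. Genes found only in labels of several genes were left out of the lists. The code was tested on simulated data. Human sequences were not used here.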

Additional observations from a re-analysis of the deposited data

How the results depend on the processing

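The count of members at least 2-fold higher was 0, and 1 with a pseudocount of 0.1 or 0.5 FPKM, which added ANXA9. The count of members at least 2-fold lower was 1, and 0 at a 4-fold threshold. At a 1.5-fold threshold, chosen after the values were seen, 5 were higher and 5 lower. ANXA9 had a log2 ratio of 1.56 with a pseudocount of 0.1 FPKM. Over all settings run, the median log2 ratio ran from -0.47 to -0.28 for S100 genes and from 0.36 to 0.54 for annexins. Each of the 23 expressed members kept the sign of its ratio in every setting in which it passed the filter. S100A3 was the only member at least 2-fold lower under each pseudocount, filter and scaling run. No paired analysis was possible because each group held 1 library, and leaving out a library was not possible for the same reason. Summing against taking the highest row, and leaving out labels of several genes, could not alter a member, since each had 1 row of its own.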

Other observations

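Of 20 expressed EF-hand genes outside the S100 family 1 was higher and 1 lower by 2-fold or more, with a median log2 ratio of -0.02. NUCB2, whose protein nucleobindin 2 is the precursor of nesfatin, stood at 33.7 FPKM in the primary library and 101 in the metastatic one. PLCD1, a calcium-sensitive phospholipase C, stood at 22.2 and 7.44 FPKM, CALM3, a calmodulin gene, at 309 and 173, and NCS1, a neuronal calcium sensor, at 2.08 and 3.88. The 4 expressed copines, which bind phospholipids through C2 domains, were all lower and within 2-fold, with a median of -0.44. CPNE8 stood at 11.8 and 7.33 FPKM, CPNE2 at 8.20 and 5.46, CPNE3 at 17.3 and 13.2 and CPNE7 at 30.8 and 28.1.

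The processed pseudogene ANXA2P2, nearly identical to ANXA2, stood at 2.01 FPKM in the primary library and 2.16 in the metastatic one, and how reads shared with ANXA2 were counted was not tested. ANXA8L1, a near copy of ANXA8, and S100A7A, a near copy of S100A7, were listed at 0 in both libraries, so the values of ANXA8 and S100A7 are uncertain. S100PBP, encoding a protein that binds S100P, stood at 12.3 and 15.2 FPKM, and ANXA2R, named as a receptor for annexin A2, at 2.06 and 1.43.

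Markers of other cells differed in both directions. Of 10 endothelial markers 3 were expressed and 2 of them were lower by over 2-fold. These were CLDN5, at 5.73 FPKM in the primary library and 1.41 in the metastatic one, and EGFL7, at 19.1 and 1.58. The sum of the list, mostly these 2, was 27.1 and 5.03. ESAM, also expressed, stood at 1.55 and 1.18 FPKM, within 2-fold. The other markers of the list were under 1 FPKM in both libraries, with PECAM1 at 0.237 and 0.0833 and CDH5 at 0.152 and 0.0144. VWF stood at 0.259 and 0.505, and KDR was listed at 0 in both. Of 7 mesothelial markers 3 were expressed, with WT1 at 0.0477 and 2.65 FPKM and UPK3B at 1.78 in the primary and listed at 0 in the metastatic tumor. Whether such values came from the tumor or from mouse tissue around the graft cannot be told. LRRN4, CALB2 and ITLN1 were listed at 0 in both, and the sum of the mesothelial list, mostly KRT19, was 40.0 and 49.7.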
